A study of Mus musculus with 6 samples.

Results

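Expression of 10 genes that mark mature B cell subsets or their receptors was examined in premalignant B cells and B cell lymphomas of the mouse. The genes were Cr2, Fcer2a, Ms4a1 and Bank1 (follicular B cell and complement receptor genes), Cd1d1, Cd9, Dtx1 and Notch2 (marginal zone genes), and Tnfrsf13b and Tnfrsf13c (receptors for the cytokine BAFF). They were chosen by name, as the probe sets that the platform annotation gives these symbols. Each of the 10 had 1 probe set, and together they were 10 of the 19938 genes measured under 1 symbol.

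Total RNA was hybridised to 6 Affymetrix Mouse Gene 1.0 ST arrays, 2 in each of 3 groups, all from Em-Myc (Eµ-Myc) mice, whose Myc transgene is driven in B lineage cells by the enhancer of the immunoglobulin heavy chain. The first group held sorted splenic B cells of premalignant mice in 2 independent preparations, with no hairpin named; the characteristics list them as normal control cells. The other groups held primary B cell lymphomas generated with a short hairpin RNA against Ezh2, the polycomb enzyme that methylates histone H3 at lysine 27 (shEzh2.781 or shEzh2.556). CD43 beads were used to purify the lymphomas, of whose cells 95% or more carried both B220 and GFP. Strain, age and the number of mice behind each array are not given in the labels, so the spread behind the p-values is that of these samples and may be technical. It is the spread between the 2 arrays within groups, so differences between the hairpin groups do not enter the p-values for lymphomas. All lymphomas analysed here carried an Ezh2 hairpin, and malignancy, hairpin and cell preparation cannot be told apart when they are set against premalignant cells.

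Mature B cells of the spleen fall mainly into follicular B cells, which recirculate and carry CD23, and marginal zone B cells, which stay beside the marginal sinus and carry much CD21 and CD1d. Signals through Notch2 direct cells to the marginal zone fate, and the ubiquitin ligase Deltex1 is a known product of a Notch target gene in these cells. BAFF keeps mature B cells alive through the BAFF receptor, while the related receptor TACI binds both BAFF and APRIL. Values below are log2 signals of a probe set, so a difference of 1 is a doubling. Levels are compared between arrays for a gene and not between genes, because probe sets differ in how brightly they bind. A gene was called changed where the adjusted p of limma, a linear model with moderated variances fitted to all 3 groups, was below 0.05 after Benjamini-Hochberg adjustment over all 19938 genes.

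Ezh2, the hairpins' target, stood at 12.64 and 12.70 in premalignant cells, 10.92 and 11.07 in shEzh2.781 lymphomas and 11.20 and 11.30 in shEzh2.556 lymphomas. It fell by 1.55 ± 0.10 (SE) in lymphomas (limma adjusted p = 1.31e-06). The fall has the direction of the hairpin labels but cannot check them, since every lymphoma carried a hairpin and malignancy cannot be told apart from it. Array medians lay between 6.75 and 6.91, and replicate arrays correlated across genes at r between 0.9957 and 0.9963 against 0.977 to 0.9879 between groups. The B lineage label held: the summed signal of 7 measured B cell markers (Cd79a, Cd79b, Ptprc, Pax5, Ebf1, Cd22 and Blnk) was 14.76 and 14.78 in premalignant cells and 14.62 to 14.73 in lymphomas. Transcripts of other cells were also measured. The summed signal of 8 neutrophil markers was 12.82 and 13.03 in premalignant cells, 11.41 and 12.06 in shEzh2.781 lymphomas and 10.23 and 9.54 in shEzh2.556 lymphomas, and all 8 fell in lymphomas. In a bulk sample, fewer cells of a type and less RNA per cell cannot be told apart.

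Of the 10 subset genes, 2 rose in lymphomas (Bank1 and Cr2, the latter at a signal within the background range) and 3 fell (Cd1d1, Dtx1 and Cd9), while 5 did not pass the test. Over all genes 5.60% were called higher and 9.61% lower. By role, 2 of 4 follicular and complement receptor genes rose and none fell, 3 of 4 marginal zone genes fell and none rose, and neither BAFF receptor gene was called. This split rests partly on where Cr2 is placed, since marginal zone cells carry more of its product than follicular cells. Among marginal zone genes Cr2 would be the 1 of 5 that rose, and Bank1 would be the only gene called in the follicular list. Bank1 encodes a scaffold protein of B cells and does not mark follicular cells alone. Fcer2a, the marker that separates follicular from marginal zone cells, was not called. The median difference of the 10 was -0.05 against 0.03 for all genes, since the changes ran in both directions. All 4 lymphoma arrays lay above both premalignant arrays for 3 of the 10 genes and below both for 3, against 12.7% and 16.1% of all genes. The direction of calls over all genes depended on scaling: 36.8% of calls were higher as deposited, 49.2% after quantile normalization and 52.4% after centring the array medians. The directions of the 5 called subset genes were the same under both scalings.

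**Figure D1:**
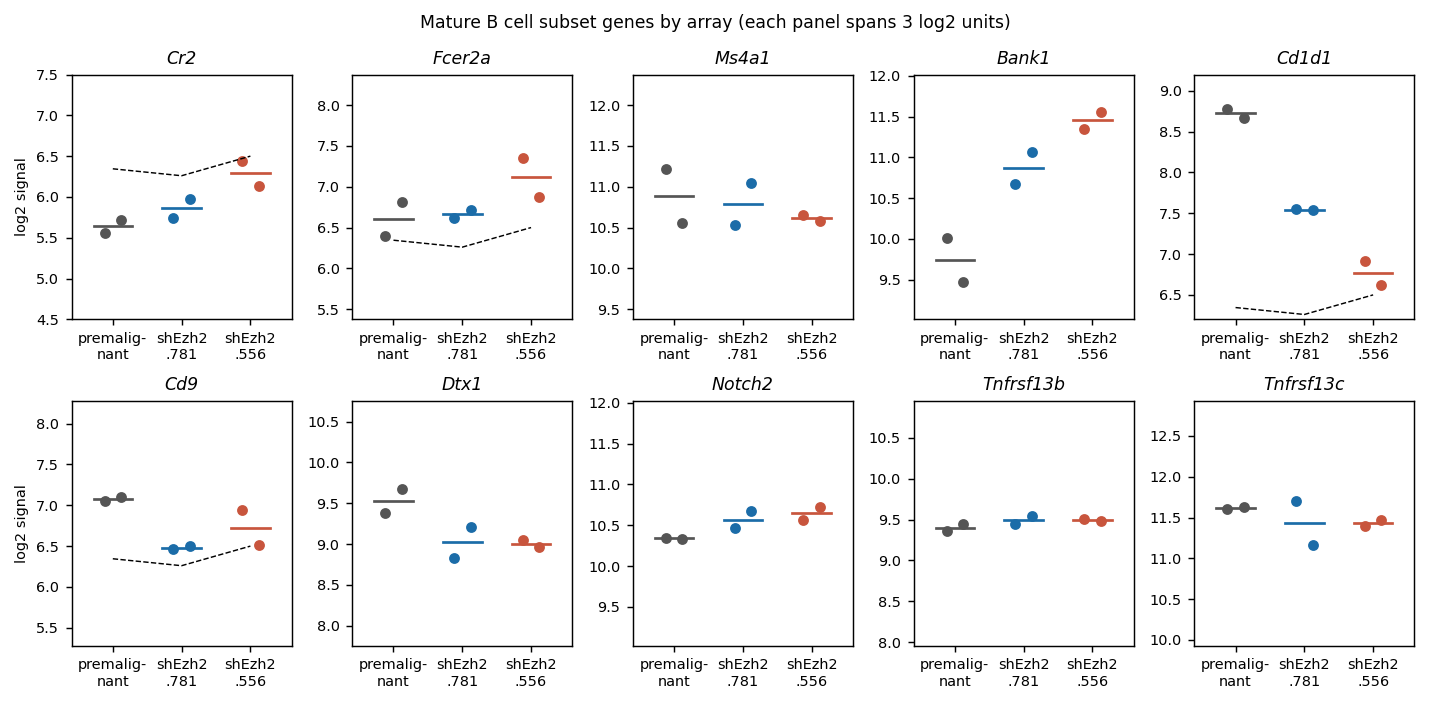
Log2 signal of the 10 subset genes (1 panel each) on each of the 6 arrays, by group; points are arrays and short bars are group means, and the dashed line, where it falls inside a panel, is the 95th percentile of olfactory receptor genes, averaged over the arrays of a group. Cd1d1 steps down from 8.73 in premalignant cells to 7.55 with shEzh2.781 and 6.76 with shEzh2.556, Bank1 steps up from 9.74 to 10.87 and 11.46, and neither BAFF receptor gene was called.

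Bank1 encodes a scaffold protein of B cells that links the antigen receptor's Src family kinases to the inositol trisphosphate receptor. Its signal was 10.01 and 9.47 in premalignant cells, 10.67 and 11.07 in shEzh2.781 lymphomas and 11.35 and 11.56 in shEzh2.556 lymphomas. The 3 groups did not overlap, in the order premalignant, shEzh2.781, shEzh2.556. Bank1 rose by 1.43 ± 0.16 (SE; 95% interval 1.08 to 1.77) in lymphomas, or 2.69-fold (limma adjusted p = 7.86e-05). Against premalignant cells the rise was 1.13 ± 0.18 with shEzh2.781 (adjusted p = 0.00178) and 1.72 ± 0.18 with shEzh2.556 (adjusted p = 5.53e-05), 2 comparisons that share the premalignant arrays. The 2 hairpins did not differ past the threshold for Bank1 (shEzh2.781 minus shEzh2.556, -0.59 ± 0.18; limma adjusted p = 0.0623), but the call was made when shEzh2.781 array 2 was left out (-0.79; adjusted p = 0.0122) and when only the lymphoma arrays were fitted (adjusted p = 0.0417). The gap of 0.54 between the premalignant preparations was larger than that of 98.6% of genes, and the rise was between 1.15 and 1.70 over the 6 fits that each left out an array.

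Cr2 encodes complement receptor CD21, and by splicing CD35, which bind opsonised antigen and lower the threshold of B cell activation. Its signal was 5.56 and 5.72 in premalignant cells, 5.74 and 5.98 in shEzh2.781 lymphomas and 6.44 and 6.14 in shEzh2.556 lymphomas. All 4 lymphoma arrays lay above both premalignant arrays, the nearest by only a small step. The difference was 0.43 ± 0.12 (SE; limma adjusted p = 0.0294). It was called with shEzh2.556 (0.65 ± 0.14; adjusted p = 0.00679) and not with shEzh2.781 (0.22 ± 0.14; adjusted p = 0.423), and the difference between hairpins missed the threshold (-0.43 ± 0.14; adjusted p = 0.0671). Cr2 was dim on every array. It lay below the 95th percentile of 1015 olfactory receptor genes (6.23 to 6.54 by array), a family silent in most cells outside the nose, and 6.40% to 16.1% of these were as bright or brighter. Cr2 was thus not above background, and no fold is given for it. The lymphoma call was lost without premalignant preparation 1 (adjusted p = 0.225) or 2 (0.0811), shEzh2.781 array 2 (0.0652) or shEzh2.556 array 1 (0.0880), and with the 4 lymphomas fitted as 1 group (0.252). The call with shEzh2.556 was lost without premalignant preparation 1 (0.57; adjusted p = 0.0696) or shEzh2.556 array 1 (0.50; 0.0792).

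Fcer2a encodes CD23, the low-affinity IgE receptor and the marker that separates follicular from marginal zone B cells. Its signal was 6.40 and 6.81 in premalignant cells, 6.62 and 6.72 in shEzh2.781 lymphomas and 7.35 and 6.88 in shEzh2.556 lymphomas. The shEzh2.781 values lay between the premalignant ones, and both shEzh2.556 values lay above them. The difference was 0.29 ± 0.15 (SE) in lymphomas (limma adjusted p = 0.240), between 0.08 and 0.49 over the 6 fits that each left out an array, and 0.51 ± 0.17 with shEzh2.556 alone (adjusted p = 0.0568). The latter passed the threshold without premalignant preparation 2 (0.72; adjusted p = 0.0379), without shEzh2.556 array 2 (0.74; 0.0226) or without either shEzh2.781 array (0.0264), after centring the array medians (0.0447) and with a variance trend (0.0337). Fcer2a was also near the floor, with 1.18% to 3.74% of olfactory receptor genes as bright or brighter.

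Ms4a1 encodes CD20, a surface protein of mature and most immature B cells. Its signal was 11.22 and 10.56 in premalignant cells, 10.53 and 11.05 in shEzh2.781 lymphomas and 10.66 and 10.58 in shEzh2.556 lymphomas. All groups overlapped, and the gap between the premalignant preparations (0.66) was larger than that of 99.4% of genes. The difference between lymphomas and premalignant cells was -0.19 ± 0.18 (SE; 95% interval -0.58 to 0.20; limma adjusted p = 0.572). Without premalignant preparation 1 it was 0.14.

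The promoters of Cr2 and Bank1, the called genes of this role, are shown for comparison of their base composition: 250 bases before the start of transcription on the gene's strand, from RefSeq (GRCm38.p6). Capitals mark TGGGAA, the core letters bound by the Notch effector RBPJ, or its reverse complement. Cr2 lies at chr1:195176720-195176969 (minus strand) and Bank1 at chr3:136326067-136326316 (minus strand).
Cr2: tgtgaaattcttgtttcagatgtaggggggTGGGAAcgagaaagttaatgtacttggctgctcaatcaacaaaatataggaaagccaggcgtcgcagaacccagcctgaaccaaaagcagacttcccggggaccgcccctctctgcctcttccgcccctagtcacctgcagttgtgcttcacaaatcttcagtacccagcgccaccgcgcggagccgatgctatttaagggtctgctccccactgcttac
Bank1: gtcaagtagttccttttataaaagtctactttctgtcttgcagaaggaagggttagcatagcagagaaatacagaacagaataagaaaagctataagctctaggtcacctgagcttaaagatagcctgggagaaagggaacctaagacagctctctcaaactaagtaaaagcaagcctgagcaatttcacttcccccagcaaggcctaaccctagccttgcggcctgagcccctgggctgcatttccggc
The Cr2 window holds 11 CG dinucleotides and 53.6% G and C, and the Bank1 window 2 and 46.4%, against medians of 6 and 52.4% over 32851 promoters of 27025 genes. The core is present in the Cr2 window and not in that of Bank1. It is found in 21.6% of all promoters of this length on either strand.

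Among marginal zone genes, Cd1d1, Cd9 and Dtx1 were lower in lymphomas, and Notch2, the receptor upstream of this fate, was not. Cd1d1 showed the largest difference of the 10 genes. It encodes CD1d, which presents lipid antigens to natural killer T cells and is abundant on marginal zone B cells. Its signal was 8.78 and 8.67 in premalignant cells, 7.55 and 7.54 in shEzh2.781 lymphomas and 6.91 and 6.62 in shEzh2.556 lymphomas. The 3 groups were apart, in the order premalignant, shEzh2.781, shEzh2.556. Cd1d1 fell by 1.57 ± 0.11 (SE; 95% interval -1.81 to -1.33) in lymphomas, a 2.97-fold lower signal (limma adjusted p = 2.37e-06). Against premalignant cells the difference was -1.18 ± 0.13 with shEzh2.781 (adjusted p = 0.000103) and -1.96 ± 0.13 with shEzh2.556 (adjusted p = 1.2e-06). With shEzh2.556 its signal came near background, with 2.46% and 3.25% of olfactory receptor genes as bright or brighter, which limits the folds that involve this group. It was the only one of the 10 called between the hairpins, 0.78 ± 0.13 higher with shEzh2.781, or 1.72-fold (limma adjusted p = 0.00313), under every setting tried. Over all genes 5.50% were called higher and 4.53% lower with shEzh2.781 in that comparison. The percentage of calls that were higher was 54.9% as deposited, 59.1% after quantile normalization and 83.2% after centring the array medians, which moved the median of all genes by 0.11.

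Neutrophil markers moved in the same group order as Cd1d1: all 8 fell in lymphomas (median -2.05) and all 8 were higher with shEzh2.781 than with shEzh2.556 (median 1.71). Their part in the Cd1d1 result was not tested. The paralogue Cd1d2, whose sequence is nearly that of Cd1d1, had a signal of 6.69 and 6.96 in premalignant cells, 6.37 and 6.04 with shEzh2.781 and 6.55 and 6.50 with shEzh2.556. It fell by 0.46 ± 0.12 (SE; limma adjusted p = 0.0233), a call lost without premalignant preparation 2, shEzh2.781 array 2 or either shEzh2.556 array and with the 4 lymphomas fitted as 1 group (0.164). Whether each probe set also binds the other gene's transcript was not tested, so the split between the pair is uncertain. In lymphomas Cd1d2 lay near the olfactory 95th percentile of those arrays (6.23 to 6.54), which limits the size of its fall.

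Of 18678 genes compared, the 5 nearest to Cd1d1 in profile over the 6 arrays, by Euclidean distance after centring each gene on its mean, were Rag2 (0.21), Clec12a (0.31), Megf9 (0.32), Klhl22 (0.36) and Ipcef1 (0.37). Rag2, a subunit of the recombinase that assembles antigen receptor genes, stood at 8.39 and 8.43 in premalignant cells, 7.28 and 7.12 with shEzh2.781 and 6.44 and 6.20 with shEzh2.556. All 5 had lower signals in lymphomas by 1.38 to 1.65 and higher signals with shEzh2.781 by 0.61 to 1.02. These genes were selected for likeness, so their values are a description. With shEzh2.556, Rag2, Clec12a (6.40 and 6.07) and Ipcef1 (5.61 and 5.36) lay below the olfactory 95th percentile of those arrays (6.54 and 6.46). That limits the size of the differences of these 3 genes.

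**Figure D2:**
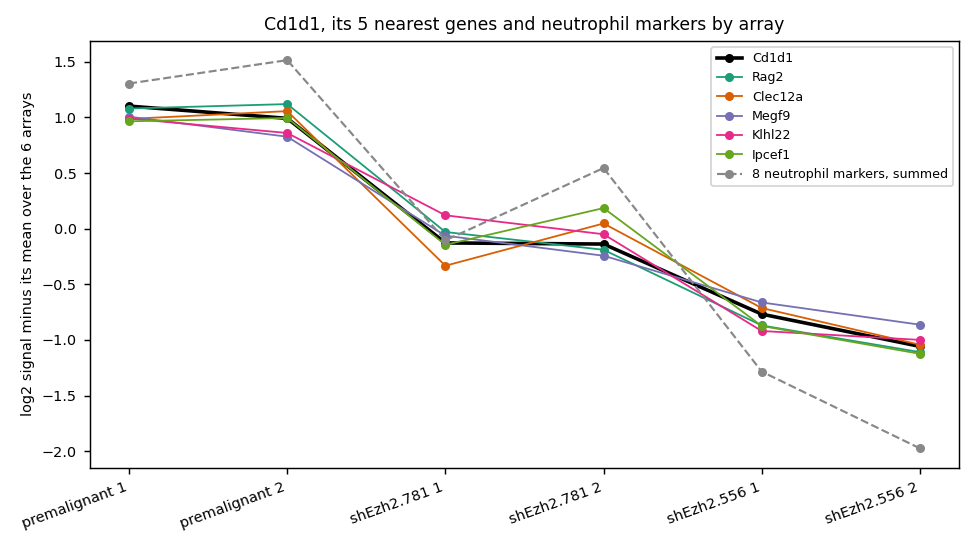
Signal relative to each gene's mean (log2) on the 6 arrays for Cd1d1, its 5 nearest genes and the summed signal of 8 neutrophil markers; lines join arrays of a profile and mark no order. The Cd1d1 profile runs from 8.78 and 8.67 in premalignant cells to 6.91 and 6.62 in shEzh2.556 lymphomas, and the neutrophil sum from 12.82 and 13.03 to 10.23 and 9.54.

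Dtx1 encodes Deltex1. Its signal was 9.38 and 9.68 in premalignant cells, 8.83 and 9.21 in shEzh2.781 lymphomas and 9.05 and 8.96 in shEzh2.556 lymphomas. All 4 lymphoma arrays lay below both premalignant arrays, and the hairpin groups overlapped. Dtx1 fell by 0.52 ± 0.13 (SE), a 1.43-fold lower signal (limma adjusted p = 0.0170), and was called with shEzh2.781 (-0.51 ± 0.15; adjusted p = 0.0471) and with shEzh2.556 (-0.52 ± 0.15; adjusted p = 0.0298). The difference between hairpins was 0.01 (95% interval -0.31 to 0.33). The call in lymphomas was lost without premalignant preparation 2 (-0.37; adjusted p = 0.185) and with the 4 lymphomas fitted as 1 group (adjusted p = 0.0738). With shEzh2.781 it was lost after quantile normalization (adjusted p = 0.0505) or centring the array medians (-0.39; 0.0946), without premalignant preparation 2 (-0.37; 0.326) or shEzh2.781 array 1 (-0.32; 0.356), and without the shEzh2.556 arrays or either of them (0.0678). With shEzh2.556 it was lost after quantile normalization (-0.41; adjusted p = 0.0743) and without premalignant preparation 2 (-0.38; 0.150) or shEzh2.556 array 1 (-0.57; 0.100) or 2 (-0.48; 0.120).

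Cd9 encodes a tetraspanin found on marginal zone B cells, B-1 cells and plasma cells, and also on platelets and eosinophils. Its signal was 7.05 and 7.10 in premalignant cells, 6.46 and 6.50 in shEzh2.781 lymphomas and 6.94 and 6.51 in shEzh2.556 lymphomas. All lymphoma values lay below the premalignant ones, with shEzh2.556 array 1 close to them. Cd9 fell by 0.47 ± 0.12 (SE), a 1.38-fold lower signal (limma adjusted p = 0.0216). It was called with shEzh2.781 (-0.59 ± 0.14; adjusted p = 0.0183) and not with shEzh2.556 (-0.34 ± 0.14; adjusted p = 0.111), unless shEzh2.556 array 1 was left out (-0.56; adjusted p = 0.0269), and the hairpins did not differ past the threshold (-0.25 ± 0.14; adjusted p = 0.244). The lymphoma call was lost without premalignant preparation 1 (adjusted p = 0.103) or 2 (0.138), after quantile normalization (-0.39; 0.0515) and with the 4 lymphomas fitted as 1 group (0.126). The call with shEzh2.781 was lost after quantile normalization (-0.46; adjusted p = 0.0661) and without premalignant preparation 1 (0.0714) or 2 (0.130) or shEzh2.781 array 1 (0.0508). Cd9 was as near background as Fcer2a, with 0.69% to 4.24% of olfactory receptor genes as bright or brighter, which limits its fold. Of 6 measured platelet markers 4 fell (median -0.89; summed signal 10.05 and 10.94 in premalignant cells, 9.14 to 9.51 in lymphomas), and of 6 eosinophil markers 4 fell (median -2.0; 10.72 and 10.74 against 8.64 to 8.71). Their part in the Cd9 result was not tested. Of 11 relatives of CD1, CD9 and the complement receptors none rose and 3 fell (median 0.04): Cd1d2, Cd63 and Fcer1g. The tetraspanin gene Cd63 fell by 1.58 ± 0.16 (SE, limma adjusted p = 4.65e-05). Its signal was 6.90 and 6.48 in premalignant cells. In lymphomas it was 4.74 to 5.58, below the olfactory 95th percentile of those arrays (6.23 to 6.54), which limits the size of the fall. Fcer1g, the Fc receptor gamma chain gene, fell by 0.75 ± 0.19 (SE, limma adjusted p = 0.0173). That call was lost without either premalignant preparation or shEzh2.556 array 2. It was also lost with a variance trend (limma adjusted p = 0.0825) or the 4 lymphomas fitted as 1 group (0.0827).

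Notch2 stood at 10.35 and 10.33 in premalignant cells, 10.47 and 10.67 in shEzh2.781 lymphomas and 10.57 and 10.72 in shEzh2.556 lymphomas. All 4 lymphoma arrays lay above both premalignant arrays by small steps. The difference was 0.27 ± 0.10 (SE; 95% interval 0.04 to 0.49) and missed the threshold (limma adjusted p = 0.112). It passed after centring the array medians (0.33; adjusted p = 0.0466) and with a variance trend (0.27; 0.0436). With shEzh2.556 it passed after quantile normalization (0.37; adjusted p = 0.0403) and with a variance trend (0.30; 0.0413).

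The promoters of Cd9 and Dtx1, the called marginal zone genes with an entry in the table, are shown in the same way. Cd9 lies at chr6:125494761-125495010 (minus strand) and Dtx1 at chr5:120711670-120711919 (minus strand), and capitals again mark TGGGAA.
Cd9: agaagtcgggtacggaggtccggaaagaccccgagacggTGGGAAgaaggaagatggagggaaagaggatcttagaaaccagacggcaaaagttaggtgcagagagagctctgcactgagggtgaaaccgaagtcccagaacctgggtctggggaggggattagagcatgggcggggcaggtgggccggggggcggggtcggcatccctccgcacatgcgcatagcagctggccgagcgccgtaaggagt
Dtx1: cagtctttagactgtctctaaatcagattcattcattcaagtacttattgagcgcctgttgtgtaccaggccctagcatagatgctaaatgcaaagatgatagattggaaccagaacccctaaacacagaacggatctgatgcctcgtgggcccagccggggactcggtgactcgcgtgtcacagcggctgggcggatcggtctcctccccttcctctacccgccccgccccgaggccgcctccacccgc
The Cd9 window holds 16 CG dinucleotides and 61.6% G and C, and the Dtx1 window 15 and 56.4%. The RBPJ core is in the Cd9 window and not in that of Dtx1. Over the 8 genes matched, with 10 promoters since Fcer2a has 3, the core was in 4 promoters, those of Cd9, Cr2 and 2 of Fcer2a. The Notch2 window, at chr3:98013288-98013537 (plus strand), was the richest of the 10 in CG dinucleotides with 34, more than 96.5% of all promoters. The octamer ATGCAAAT (1.6% of all promoters) and the MYC E-box CACGTG (6.02%) were in none of the 10 windows, and the PU.1 core GAGGAA (23.3%) was in that of Dtx1 alone. All were searched on both strands.

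Neither BAFF receptor gene was called in any of the 4 comparisons. Tnfrsf13c, which encodes the BAFF receptor, stood at 11.61 and 11.63 in premalignant cells, 11.70 and 11.16 in shEzh2.781 lymphomas and 11.40 and 11.47 in shEzh2.556 lymphomas. The shEzh2.781 arrays bracketed all others, with a gap of 0.54 that was larger than that of 98.2% of genes. The difference in lymphomas was -0.19 ± 0.14 (SE; 95% interval -0.49 to 0.11; limma adjusted p = 0.424), and between -0.33 and -0.05 over the 6 fits that each left out an array. Both shEzh2.556 arrays lay below the premalignant ones. Tnfrsf13b, which encodes TACI, stood at 9.36 and 9.44, 9.44 and 9.55, and 9.51 and 9.48 in the same order of groups. Its difference was 0.10 ± 0.10 (SE; 95% interval -0.11 to 0.31; limma adjusted p = 0.593). Both shEzh2.556 arrays lay above the premalignant ones, and the difference in lymphomas was between 0.05 and 0.14 over the same 6 fits.

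**Figure D3:**
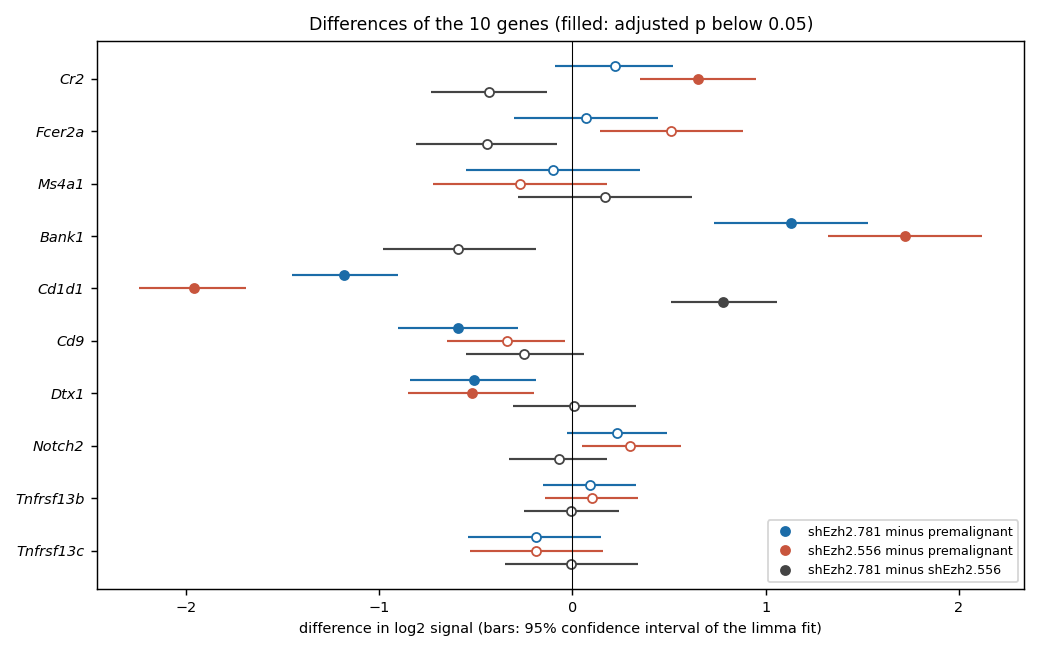
Difference in log2 signal with its 95% interval for the 10 subset genes, with each hairpin against premalignant cells and between the hairpins; filled points have a limma adjusted p below 0.05. With shEzh2.556, Bank1 (1.72) and Cr2 (0.65) lie above 0 and Cd1d1 (-1.96) and Dtx1 (-0.52) below it, and Cd1d1 is the only filled point between the hairpins (0.78).

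By hairpin, 1 of the 10 genes rose and 3 fell with shEzh2.781 against premalignant cells (of all genes, 4.60% and 6.24%), and 2 rose and 2 fell with shEzh2.556 (6.80% and 11.4%). Bank1, Cd1d1 and Dtx1 were called with both, Bank1 and Cd1d1 under every setting tried and Dtx1 with the losses given above. These counts share the premalignant arrays. With shEzh2.781, 3 of the 10 genes had both arrays above the premalignant ones and 3 below, against 22.0% and 28.6% of all genes, and with shEzh2.556 the counts were 5 and 4, against 35.8% and 26.5%. Of all calls with shEzh2.781, 42.4% were higher as deposited and 67.3% after centring the array medians, which moved the median of all genes by 0.12. Of those with shEzh2.556, 37.3% were higher as deposited and 50.7% after quantile normalization. Between the hairpins, Cd1d1 was higher with shEzh2.781 and none of the 10 was called lower. The group values of Cr2, Fcer2a, Bank1 and Cd9 did not overlap between the hairpins and were lower with shEzh2.781, as were 40.1% of all genes; those of Cd1d1 were higher, as were 25.0%.

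**Figure D4:**
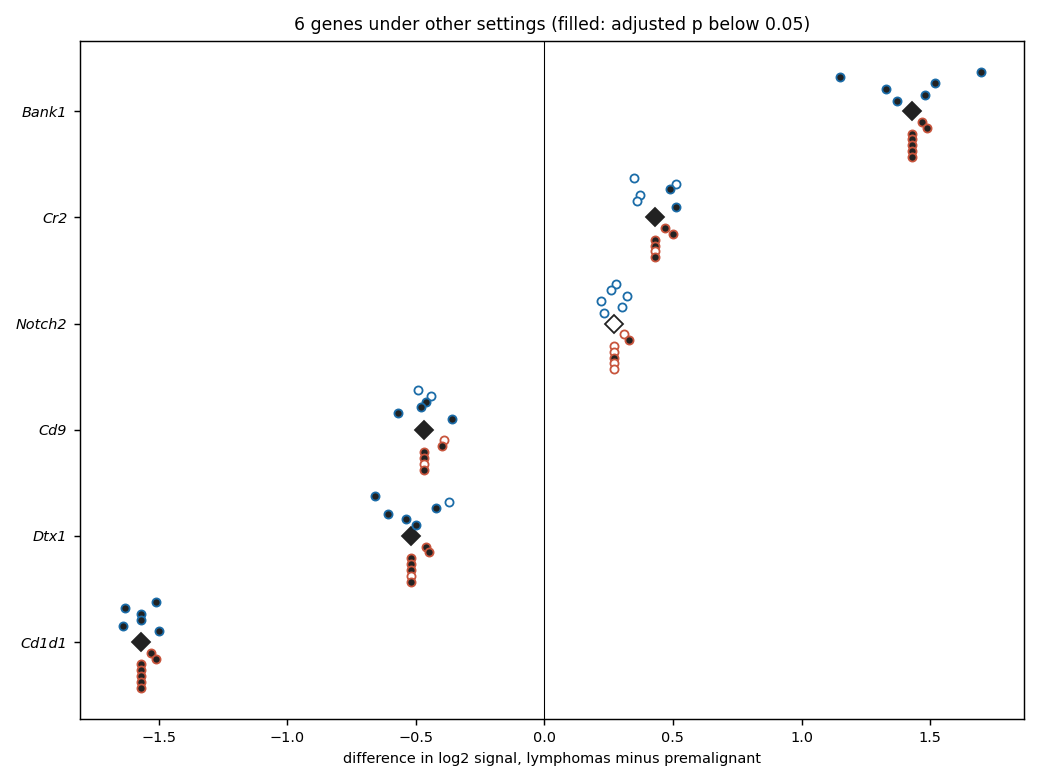
Difference in log2 signal between lymphomas and premalignant cells for the 5 called genes and Notch2 under other settings; diamonds are the reported fit, points above them each leave out 1 array, points below them are other settings, and filled symbols have a limma adjusted p below 0.05. Bank1 (1.15 to 1.70) and Cd1d1 (-1.64 to -1.50) are filled throughout, whereas Cr2, Cd9 and Dtx1 have open points.

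The Notch pathway was described over 25 measured genes of 26 listed. In lymphomas 5 rose and 3 fell, with a median difference of 0.01 against 0.03 for all genes. Over all genes 5.60% were called higher and 9.61% lower, the shares against which this and the other gene and marker lists are to be read. Lists with 1 or 2 calls are not read as results about the list. Lfng and Mfng, fringe glycosyltransferases that tune Notch receptors to their ligands, rose by 0.83 ± 0.10 and 0.53 ± 0.11 (SE; limma adjusted p = 0.000115 and 0.00586). Notch1 fell by 0.60 ± 0.12 (limma adjusted p = 0.00447), and Nrarp, a feedback inhibitor known as a Notch target, fell by 0.59 ± 0.10 (adjusted p = 0.00223). The calls of Notch1 and Mfng were lost without premalignant preparation 2, and the count higher was 3 without preparation 1 and 2 without preparation 2 or with the 4 lymphomas fitted as 1 group.

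Of 11 other marginal zone genes, 1 rose and 2 fell (median -0.09). Mzb1, an endoplasmic reticulum chaperone of marginal zone B and plasma cells, rose by 0.76 ± 0.09 (SE; limma adjusted p = 0.000163). Tm6sf1 fell by 0.64 ± 0.12 (adjusted p = 0.00324) and Myof by 0.48 ± 0.12 (adjusted p = 0.0201). Myof stood at 6.74 and 6.62 in premalignant cells and 5.96 to 6.38 in lymphomas. The lymphoma values were near or below the olfactory 95th percentile of those arrays (6.23 to 6.54), which limits the size of its fall. Tm6sf1 was 10.30 and 10.16 in premalignant cells, 9.92 and 10.31 with shEzh2.781 and 9.02 and 9.12 with shEzh2.556, so its difference was that of the shEzh2.556 lymphomas. Neither fall was called without premalignant preparation 1, and that of Myof was also lost without preparation 2 or shEzh2.556 array 1. With the 4 lymphomas fitted as 1 group, neither was called (adjusted p = 0.378 for Tm6sf1 and 0.0842 for Myof).

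Of 7 other follicular genes measured, 2 rose and 1 fell (median 0.12). Cd22, an inhibitory receptor of B cells, rose by 0.55 ± 0.10 (SE; limma adjusted p = 0.00309). Cxcr5, the chemokine receptor that guides cells into follicles, rose by 0.74 ± 0.21 (adjusted p = 0.0329), and its values were 6.60 and 6.52 in premalignant cells, 6.41 and 7.24 with shEzh2.781 and 7.46 and 8.10 with shEzh2.556. Fcmr, the IgM Fc receptor, fell by 1.20 ± 0.25 (adjusted p = 0.00661). The Cxcr5 call was lost without either premalignant preparation or shEzh2.556 array 2, and the Fcmr call without premalignant preparation 2. Both were also lost with a variance trend (adjusted p = 0.237 for Cxcr5 and 0.217 for Fcmr) and with the 4 lymphomas fitted as 1 group (0.347 and 0.0503).

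Follicular dendritic cells can also express Cr2 and Fcer2a. Of 6 measured markers of these cells 1 rose, Fcgr2b, which B cells express too (1.59 ± 0.11; limma adjusted p = 1.86e-06), and the summed signal was 10.91 and 11.01 in premalignant cells against 11.81 to 11.91 in lymphomas. Without Fcgr2b, a sum chosen after seeing the data, the other 5 gave 10.11 and 10.30 against 10.18 to 10.57, and the groups overlapped. Their part in the Cr2 result was not tested.

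Around Bank1, of 7 measured partners and scaffold genes none rose and 4 fell (median -0.38), against 5.60% and 9.61% of all genes, while Bank1 itself rose. Blk, a Src family kinase of B cells, fell by 1.03 ± 0.12 (SE; limma adjusted p = 0.000113) and Pik3ap1, an adaptor for phosphoinositide 3-kinase in B cells, by 1.04 ± 0.10 (adjusted p = 2.33e-05). Itpr3 fell by 0.42 ± 0.10 (adjusted p = 0.0118) and Traf6 by 0.38 ± 0.09 (adjusted p = 0.0179), and both calls were lost without premalignant preparation 1; that of Traf6 was also lost without preparation 2 or shEzh2.781 array 2. With the 4 lymphomas fitted as 1 group, Pik3ap1 was the only one of the 4 called (adjusted p = 0.0966 for Blk). Of 14 MS4A cluster relatives of Ms4a1, 2 rose and none fell: Ms4a6b by 0.97 ± 0.10 and Ms4a8a by 0.59 ± 0.10 (adjusted p = 5.81e-05 and 0.00198).

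The BAFF and APRIL system held 8 measured genes, of which 1 fell and none rose (median -0.29). That gene was Tnfsf13b, which encodes BAFF itself and is expressed mostly by myeloid and stromal cells (-0.41 ± 0.11 SE; limma adjusted p = 0.0219). Its signal was 6.51 and 6.76 in premalignant cells, near the olfactory 95th percentile, and 6.18 to 6.33 in lymphomas, and the call was lost without premalignant preparation 2 or shEzh2.556 array 1 and with the 4 lymphomas fitted as 1 group (adjusted p = 0.0868). Without preparation 1, 3 genes of the list were called lower. Of 8 macrophage and monocyte markers 1 rose (Csf1r) and none fell. The rise was lost without premalignant preparation 1 or shEzh2.556 array 1 and with the 4 lymphomas fitted as 1 group, and in 5 of the 6 fits that each left out an array 1 marker was called lower. The markers had a summed signal of 11.55 and 11.74 in premalignant cells and 10.86 to 11.44 in lymphomas.

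**Figure D5:**
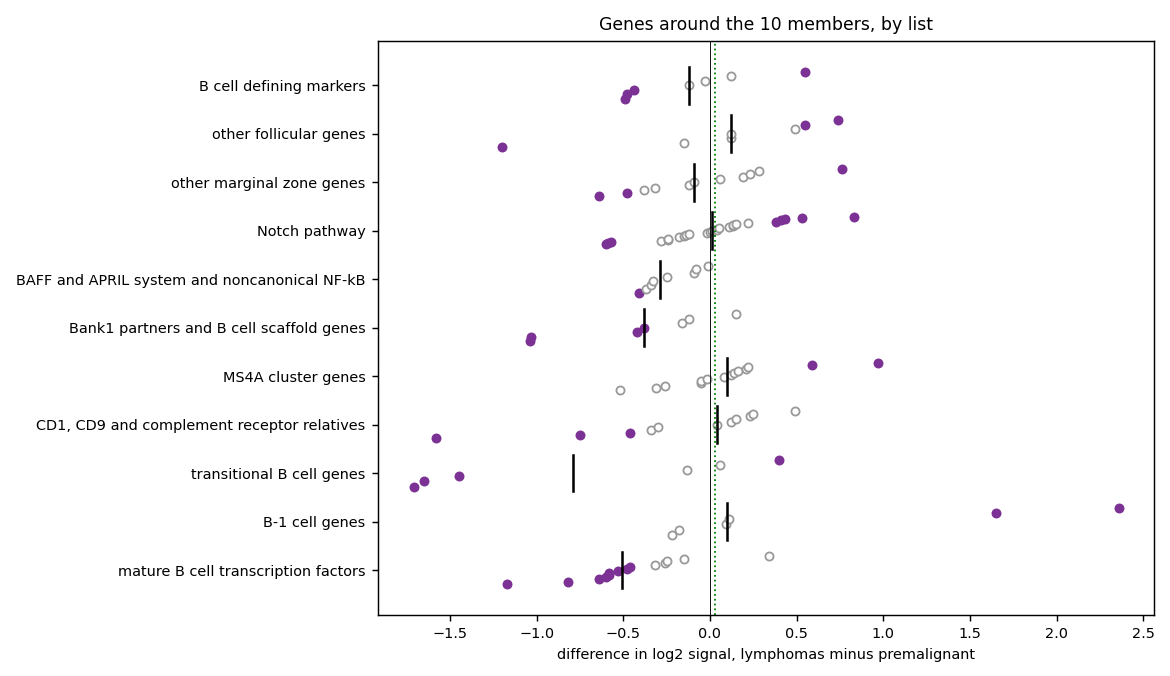
Differences in log2 signal between lymphomas and premalignant cells for each measured gene of the lists around the 10 subset genes, 1 row per list; filled points have a limma adjusted p below 0.05, black ticks are list medians and the green dotted line is the median of all genes (0.03). The mature B cell transcription factors have a median of -0.51 and the Notch pathway genes one of 0.01.

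Lists of transitional B cell genes, B-1 cell genes and mature B cell transcription factors were also described. Of 6 genes listed as transitional, 3 fell and 1 rose (median -0.79). The list includes the recombinase genes Rag1 and Rag2, which are not particular to transitional cells, so its falls do not measure that stage. With shEzh2.556, Rag2 (6.44 and 6.20) lay below the olfactory 95th percentile of those arrays (6.54 and 6.46), which limits the size of its fall. Rag1 fell by 1.71 ± 0.13, Rag2 by 1.65 ± 0.11 and Ly6d by 1.45 ± 0.14 (SE; limma adjusted p = 4.54e-06, 1.34e-06 and 3.20e-05), while Cd93, the surface marker of transitional cells, rose by 0.40 ± 0.11 (adjusted p = 0.0247), a call lost without premalignant preparation 1, shEzh2.781 array 1 or shEzh2.556 array 2. Of 6 B-1 cell genes 2 rose and none fell: Zbtb32 by 2.36 ± 0.12 and Bhlhe41 by 1.65 ± 0.11 (SE, limma adjusted p = 2.58e-07 and 2.11e-06). The others, Cd5, Spn, Ctla4 and Cd300lf, were not called (list median 0.10), so the 2 rises do not measure that subset. All 4 lymphoma arrays lay above both premalignant arrays for 3 of the 6 genes and below both for 1, Cd300lf. Zbtb32 was 7.39 and 7.36 in premalignant cells, 8.85 and 8.99 with shEzh2.781 and 10.33 and 10.75 with shEzh2.556, the order of Bank1. Of 14 mature B cell transcription factors 9 fell and none rose (median -0.51), against 9.61% and 5.60% of all genes. Bach2 fell by 1.17 ± 0.10, Spib by 0.82 ± 0.10, Irf4 by 0.64 ± 0.11 and Foxo1 by 0.60 ± 0.10 (SE, limma adjusted p = 7.67e-06, 0.000173, 0.00148 and 0.00149). The count lower was 4 without premalignant preparation 2 and also with the 4 lymphomas fitted as 1 group, when the calls of Irf4 (adjusted p = 0.202), Ly6d (0.0834) and Cd93 (0.0902) were lost too. Of the 7 B cell markers that checked the label, Cd22 rose and Ebf1, Pax5 and Blnk fell by 0.44 to 0.49, and none of the falls was called without premalignant preparation 2. The calls of Ebf1 and Blnk were also lost with the 4 lymphomas fitted as 1 group (limma adjusted p = 0.0564 and 0.122). Among markers of further cell types, 4 of 7 dendritic, 4 of 7 plasma, 2 of 6 T and 2 of 4 measured erythroid genes fell, and 1 dendritic gene rose. With shEzh2.781 3 erythroid and 1 plasma genes were called lower, and with shEzh2.556 0 and 3. The dendritic gene that rose, Xcr1, stood at 5.60 to 6.37, near or below the olfactory 95th percentile.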

How the data were processed

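The authors deposited 1 log2 value per probe set, normalized by a method not given in the sources used here; that the scale is log2 follows from their range (2.30 to 14.22). Probe sets were named through the platform annotation: of 35512, 21789 had 1 symbol, 1621 several and 12102 none, and the latter 2 kinds were not used. The brightest probe set stood for each of the 999 genes that had several. Groups followed the titles. All 6 arrays entered 1 limma fit (version 3.58.1, R 4.3.3) with a mean per group, no covariates, and 8.51 prior and 3 residual degrees of freedom. The fit was also run on data simulated under its own model, which cannot test how well that model suits these arrays. List summaries and figures used pandas 2.3.3, matplotlib 3.10.9 and numpy 2.4.6 under Python 3.11.15. Summed signals are the log2 of the sum of linear values. Promoters and gene symbols came from RefSeq (GRCm38.p6).

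The members and lists were chosen with earlier results of these data known, so no list is independent evidence. Named were the 10 members, Ezh2, in each list up to 4 genes with the smallest p in lymphomas or any gene of a list with 5 or fewer calls, and the 5 genes nearest to the member with the largest difference, leaving out predicted genes and antigen receptor segments. The alternatives were quantile normalization, centred array medians, genes above the median signal only, the mean of a gene's probe sets, a variance trend with robust moderation, only the groups compared, a replicate block and leaving out each array. The number of arrays and the signal over background limit the precision. Premalignant and shEzh2.781 arrays with the same number did not deviate together (r = -0.091), nor did the other pairs of groups (-0.124 and 0.064), so replicate numbers were not taken as pairs. A listed marker gene and 1 gene list are not reported here.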

Additional observations from a re-analysis of the deposited data

Results flagged for a closer look

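These genes differed between the hairpin groups in a test of that difference (limma adjusted p below 0.05), so that their change against premalignant cells was not the same with both hairpins. Values are shEzh2.781 minus shEzh2.556 in log2 signal. Cd1d1 was higher with shEzh2.781 by 0.78 (adjusted p = 0.00313). Of the genes nearest to it in profile, selected partly on this difference, Rag2 was higher by 0.88, Clec12a by 0.74, Megf9 by 0.61, Klhl22 by 0.99 and Ipcef1 by 1.02. The shEzh2.556 signals of Rag2, Clec12a and Ipcef1 were within the background range, which limits the size of their differences. The call of Clec12a was lost without shEzh2.781 array 2 or shEzh2.556 array 2, and that of Megf9 without shEzh2.781 array 1 or shEzh2.556 array 2. Rag1 was higher by 0.96 and Ly6d by 1.29, and the marginal zone gene Tm6sf1 by 1.04 (limma adjusted p = 0.00259, 0.000738 and 0.000928). Blk was higher by 0.94, Irf4 by 0.74 and Spib by 0.40 (limma adjusted p = 0.00187, 0.00378 and 0.0490), the last lost when any lymphoma array was left out, after quantile normalization and with the replicate block. Cxcr5 differed by -0.96 (limma adjusted p = 0.0315), a call lost without either premalignant preparation, shEzh2.781 array 1 or shEzh2.556 array 2. That call was also lost after quantile normalization, with a variance trend and with only the lymphoma arrays fitted (limma adjusted p = 0.0535, 0.168 and 0.057). Zbtb32 differed by -1.62 (limma adjusted p = 5.86e-05).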

How the results depend on the processing

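Bank1 and Cd1d1 were called against premalignant cells under all alternatives, and Cd1d1 between hairpins under all of them. With the 4 lymphomas fitted as 1 group, 1091 genes were called against 3033, and 1 subset gene higher and 1 lower. With genes above the median signal only, which left out Cr2, Fcer2a and Cd9, 1 subset gene was called higher in lymphomas and 1 with shEzh2.556. After quantile normalization 1 was called lower with each hairpin. With a variance trend 4 were called higher with shEzh2.556 and 1 lower between hairpins, as was 1 with the lymphoma arrays alone. Leaving out 1 array gave 1721 to 2833 genes called in lymphomas, 1103 to 2048 with shEzh2.781, 1949 to 3669 with shEzh2.556 and 718 to 2085 between hairpins; without premalignant preparation 1 or shEzh2.556 array 1, 2112 and 1949 were called with shEzh2.556 against 3635. Subset genes called higher and lower ranged from 1 to 2 and 1 to 3 in lymphomas, lower from 1 to 3 with shEzh2.781, higher from 1 to 3 and lower from 1 to 2 with shEzh2.556, and lower from 0 to 1 between hairpins.

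With the replicate block 2889 genes were called in lymphomas, 2078 with shEzh2.781, 3371 with shEzh2.556 and 1783 between hairpins, and no subset gene's call changed; with crossed numbers, chosen after seeing the data, 4243 were called with shEzh2.556, with 3 subset genes higher and 2 lower. Uncalled differences also changed sign. Leaving out 1 array, Ms4a1 ranged from -0.51 to 0.14 in lymphomas, -0.43 to 0.23 with shEzh2.781 (0.16 without its array 1), -0.60 to 0.06 with shEzh2.556 and -0.09 to 0.43 between hairpins, the sign against premalignant cells turning without preparation 1. Against premalignant cells with shEzh2.781, Fcer2a ranged from -0.14 to 0.27 and Tnfrsf13c from -0.46 to 0.08. Between hairpins, Dtx1 ranged from -0.18 to 0.20, Notch2 from -0.17 to 0.02, Tnfrsf13b from -0.06 to 0.05 and Tnfrsf13c from -0.28 to 0.27. Scaling turned Ms4a1 with shEzh2.781 (0.02) and, between hairpins, Notch2 (0.04), Tnfrsf13b (0.11) and Tnfrsf13c (0.11) when medians were centred, and Dtx1 after quantile normalization (-0.10). The cause was not tested. Of 1213 recomputed differences of named genes, 1085 kept direction and side of the threshold, 92 lost a call, 17 gained one and 19 changed sign. Low signal over background limits Cr2, Fcer2a, Cd9 and, with shEzh2.556, Cd1d1 among the subset genes. It also limits other named genes, among them Rag2, Clec12a and Ipcef1 with shEzh2.556, and Cd63, Cd1d2, Myof and Tnfsf13b in lymphomas.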
